A study of Homo sapiens with 15 samples.

Results

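Cells of A549, a human lung adenocarcinoma epithelial line, that had received a mismatch polyamide together with dexamethasone were compared with cells that had received neither. The comparison took the 3 arrays labelled mismatch polyamide for 48 hours and dexamethasone for 6 hours and set them against the 3 arrays labelled non-treated control, 6 of 15 arrays in all. The other 9 arrays were 3 with a match polyamide (48 hours) plus dexamethasone (6 hours), 3 with mifepristone (48 hours) plus dexamethasone (6 hours) and 3 with dexamethasone alone (6 hours), and they served to place the result. The culture medium of every group, F12K with serum treated with charcoal, is poor in steroid hormones. The labels give no dose, no target sequence and no structure for either polyamide, and no array analysed held the mismatch polyamide without hormone. The step from non-treated cells to the mismatch group therefore changes ligand, hormone and any handling together. The comparison with dexamethasone alone holds the hormone constant and differs by the 48 hours of ligand treatment, for which the labels name no vehicle in the dexamethasone group.

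Dexamethasone is a synthetic glucocorticoid. It enters the cell and binds the glucocorticoid receptor, a transcription factor that moves to the nucleus, binds short paired DNA motifs called glucocorticoid response elements, switches on genes such as FKBP5 and lowers many inflammatory genes. Mifepristone occupies the same receptor and blocks it. Pyrrole-imidazole polyamides are synthetic molecules that lie in the minor groove of DNA at a chosen short sequence and can displace proteins there. The series concerns a polyamide directed at the glucocorticoid response element, and a mismatch polyamide is the control ligand, one made for another sequence.

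The measurements were microarray signals, 1 per probe set, brought to a common distribution by quantile normalization, so the signals quoted have no unit, and changes are differences of log2(signal + 16). The added 16 makes every change of a weak gene smaller than it was. A probe set or gene was called higher or lower where limma's moderated test gave a Benjamini-Hochberg adjusted p under 0.05 over all 39744 probe sets tested, and every p below is such a value unless another test is named. Over log2 signals, the correlation r between arrays was 0.979 to 0.982 inside the mismatch group, 0.984 inside the non-treated group and 0.961 to 0.964 from one group to the other. Along the main axis of variation (principal component 1, 39.4% of the variance) the mismatch arrays lay at 31.9 to 35.6, the match arrays at 60.5 to 67.0 and the 9 arrays without a polyamide at -36.7 to -30.2. The 9 epithelial markers of A549 cells summed to signals of 38238 to 39320 on mismatch arrays and of 39767 to 40731 on non-treated arrays. Leukocyte markers summed to 148 to 185 on mismatch arrays, against 137 to 171, and 7 of the 10 with a probe set of their own had mean signals under the median of all probe sets (18.2). The other leukocyte markers were CD14, CSF1R and ITGAM, of which ITGAM, an integrin of myeloid cells, had 52.8, 45.9 and 56.9 on mismatch arrays, against 31.9, 34.4 and 34.0 on non-treated arrays, with no overlap (0.45, adjusted p = 0.068). None of the 8 leukocyte markers tested passed, and their part in the results was not tested. Endothelial markers summed to 69.3 to 75.8 on mismatch arrays, against 66.2 to 81.8. Fibroblast and muscle markers summed to 456 to 547 on mismatch arrays and to 383 to 430 on non-treated arrays, 1 of 10 tested (ACTA2) being called higher, and their part in the results was not tested. The ratio of 3' to 5' probe signal for ACTB, a sign of RNA quality, was 1.41 to 1.99 on mismatch arrays and 1.36 to 1.57 on non-treated arrays. The labels do not state whether the 3 arrays of a group were separate cultures. A p here therefore reflects array-to-array spread that may be technical, and in bulk RNA fewer cells of a kind and less RNA per cell cannot be told apart.

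The mismatch polyamide plus dexamethasone moved a large share of the transcriptome relative to non-treated cells. Of 39744 probe sets, 8341 (21%) were called, 4113 higher (10.3%) and 4228 lower (10.6%), and 427 of these were higher (1.07%) and 786 lower (1.98%) by at least 2-fold. Dexamethasone alone, set against the same non-treated arrays, gave 1927 calls (4.85%), 1017 higher (2.56%) and 910 lower (2.29%). Set against dexamethasone alone, the mismatch group gave 9109 calls (22.9%), 4783 higher (12%) and 4326 lower (10.9%). Over genes, each represented by 1 probe set, 4532 of 16358 (27.7%) were called against non-treated cells, 2447 higher (15%) and 2085 lower (12.7%). The balance of directions rests on the normalization: 49.3% of the called probe sets were higher here, but 72.3% were higher on the signals as deposited, which shift the median of all probe sets by 0.16 on the log2 scale. Scaling to the hybridization spike-in controls left 1773 higher and 2169 lower.

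Genes induced by glucocorticoids stood high in the mismatch group. FKBP5, which encodes a co-chaperone that damps the glucocorticoid receptor, had signals of 1480.0, 1573 and 1504 in mismatch plus dexamethasone cells, 2659, 2711 and 2828 with dexamethasone alone and 213, 229 and 251 in non-treated cells. The 3 groups did not overlap, and the mismatch arrays lay between the other two. The gene was higher than in non-treated cells by 2.64 (SE 0.071, adjusted p = 6.51e-15), and its difference from dexamethasone alone was -0.84 (SE 0.071, adjusted p = 2.91e-08) on the same log2 scale. Dexamethasone alone gave 3.48 against the same non-treated arrays.

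CDKN1C, an inhibitor of cyclin-dependent kinases, had signals of 412, 362 and 377 in the mismatch group, 362, 397 and 436 with dexamethasone alone and 15.9, 14.6 and 23 in non-treated cells. Its arrays with mismatch and with dexamethasone alone overlapped, both far above the non-treated ones. The rise against non-treated cells was 3.57 (SE 0.12, adjusted p = 2.1e-13), and the difference from dexamethasone alone was -0.048 (95% CI -0.31 to 0.21, adjusted p = 0.846). TSC22D3, the gene of GILZ, an anti-inflammatory leucine zipper protein, had signals of 836, 819 and 851, against 1105, 1053 and 1145 with dexamethasone alone and 133, 119 and 118 in non-treated cells. It stood 2.62 (SE 0.095, adjusted p = 2.52e-13) above non-treated cells and was below dexamethasone alone by a smaller step, -0.39 (SE 0.095, adjusted p = 0.00428).

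A second kind of hormone gene stood above its level with dexamethasone alone. RRAD, a small GTPase of the Ras-related RGK family, had signals of 368, 354 and 311 in the mismatch group, 181, 182 and 212 with dexamethasone alone and 10.3, 9.58 and 4.06 in non-treated cells, a rise of 3.92 (SE 0.18, adjusted p = 3.98e-12) against non-treated cells and of 0.80 (SE 0.18, adjusted p = 0.00235) against dexamethasone alone. SCNN1A, the alpha subunit of the epithelial sodium channel and a known steroid target, had 396, 398 and 369.6, against 139, 147 and 163 with dexamethasone alone and 49.1, 48.6 and 17.9 in non-treated cells. The sodium channel subunit was higher by 2.95 (SE 0.18, adjusted p = 1.61e-10) against non-treated cells and by 1.29 (SE 0.18, adjusted p = 1.58e-05) against dexamethasone alone, and in both genes the mismatch arrays were the highest with no overlap. GMPR, which encodes guanosine monophosphate reductase, behaved likewise, at 3.22 (SE 0.18, adjusted p = 6.78e-11) against non-treated cells and 1.29 (SE 0.18, adjusted p = 1.92e-05) against dexamethasone alone. HSD11B2, which inactivates cortisol, was weak everywhere, with 50.8, 38.7 and 47.3 in the mismatch group, 20.5, 25.3 and 21.9 with dexamethasone alone and 3.42, 0.771 and 2.86 in non-treated cells, and was higher than in non-treated cells by 1.75 (SE 0.21, adjusted p = 3.42e-06). With 1 in place of 16 added before the logarithm RRAD no longer passed against dexamethasone alone (adjusted p = 0.228), and another probe set of SCNN1A did not pass against non-treated cells (0.36).

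Other induced genes stood well below dexamethasone alone. DNAJC15, a mitochondrial co-chaperone, had signals of 73.6, 75.3 and 69.3 in the mismatch group, 244, 197 and 179.7 with dexamethasone alone and 0.979, 11.8 and 0.972 in non-treated cells, and differed from dexamethasone alone by -1.32 (SE 0.21, adjusted p = 7.25e-05), a call lost with 1 in place of 16 added. Another DNAJC15 probe set gave 0.80 against non-treated cells and -0.58 against dexamethasone alone (adjusted p = 0.0015 and 0.0153). A further probe set passed in neither comparison (-0.044 and -0.16). The lipid-droplet gene CIDEC rose by 1.37 against non-treated cells, where dexamethasone alone gave 3.03, and the direct difference was -1.66 (SE 0.13, adjusted p = 6.79e-09). TFCP2L1, a transcription factor, stood at 2.54 (SE 0.11, adjusted p = 2.53e-12) above non-treated cells and at -0.91 (SE 0.11, adjusted p = 4.23e-06) relative to dexamethasone alone. ANGPTL4, an inhibitor of lipoprotein lipase, was higher by 2.78 (SE 0.16, adjusted p = 7.75e-11), and FGD4 and RGS2, regulators of small and heterotrimeric G proteins, by 1.71 and 1.73 (SE 0.13 and 0.089). Another probe set of FGD4 did not pass (0.45, adjusted p = 0.12), and a further probe set was higher (2.00, adjusted p = 1.35e-07). Among the 12 most raised genes were also CDH16, a cadherin, at 2.65, and FAM43A at 2.46, both called with dexamethasone alone too (2.09 and 1.95).

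Textbook targets with smaller changes were mixed. DUSP1, which dephosphorylates MAP kinases, had signals of 5001, 4773 and 5192 in the mismatch group, 5875, 5706 and 5792 with dexamethasone alone and 2159, 2159 and 2254 in non-treated cells, 1.18 (SE 0.047, adjusted p = 8.18e-13) against non-treated cells. ERRFI1, a feedback inhibitor of the EGF receptor, rose by 1.67 (SE 0.054, adjusted p = 8.36e-14) and lay within -0.089 to 0.14 (95% CI) of dexamethasone alone. KLF9, a zinc-finger transcription factor, rose by 1.43 (SE 0.19, adjusted p = 7.74e-06) at weak signals, its other probe set not passing (0.61, adjusted p = 0.111), and the kinase SGK1 by 0.55 (SE 0.098, adjusted p = 0.000274). ZBTB16 did not pass the test, at -0.19 (95% CI -0.80 to 0.42, adjusted p = 0.74), nor with dexamethasone alone (-0.091, adjusted p = 0.94).

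Over the list of glucocorticoid-induced genes, 37 of 47 tested members were called higher (against 15% of all genes), 2 lower and 8 did not pass, with a median change of 1.12 beside 0.044 over all genes. Dexamethasone alone, against the same non-treated arrays, gave 36 higher (all genes 3.19%), 1 lower (all genes 3.6%) and a median of 1.13. Set directly against dexamethasone alone, 9 members were higher (all genes 17.9%) and 21 lower (all genes 11.8%). The lower members against non-treated cells were LCN2, an iron-scavenging secreted protein, at -0.95 and the taurine transporter SLC6A6 at -0.82, another of whose probe sets was higher (1.20, adjusted p = 0.00401), and 1 was left without replicate 3 of the non-treated arrays. One higher member, RASD1, did not pass with dexamethasone alone, where its change was -0.079 (adjusted p = 0.925). Calls against dexamethasone alone were lost on the signals as deposited and with spike-in scaling for TSC22D3, SGK1, DUSP1 and ANGPTL4, while their calls against non-treated cells were kept there. Second probe sets of DUSP1 gave 2.23 and 0.53, and those of FKBP5 2.53 and 2.38.

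**Figure D1:**
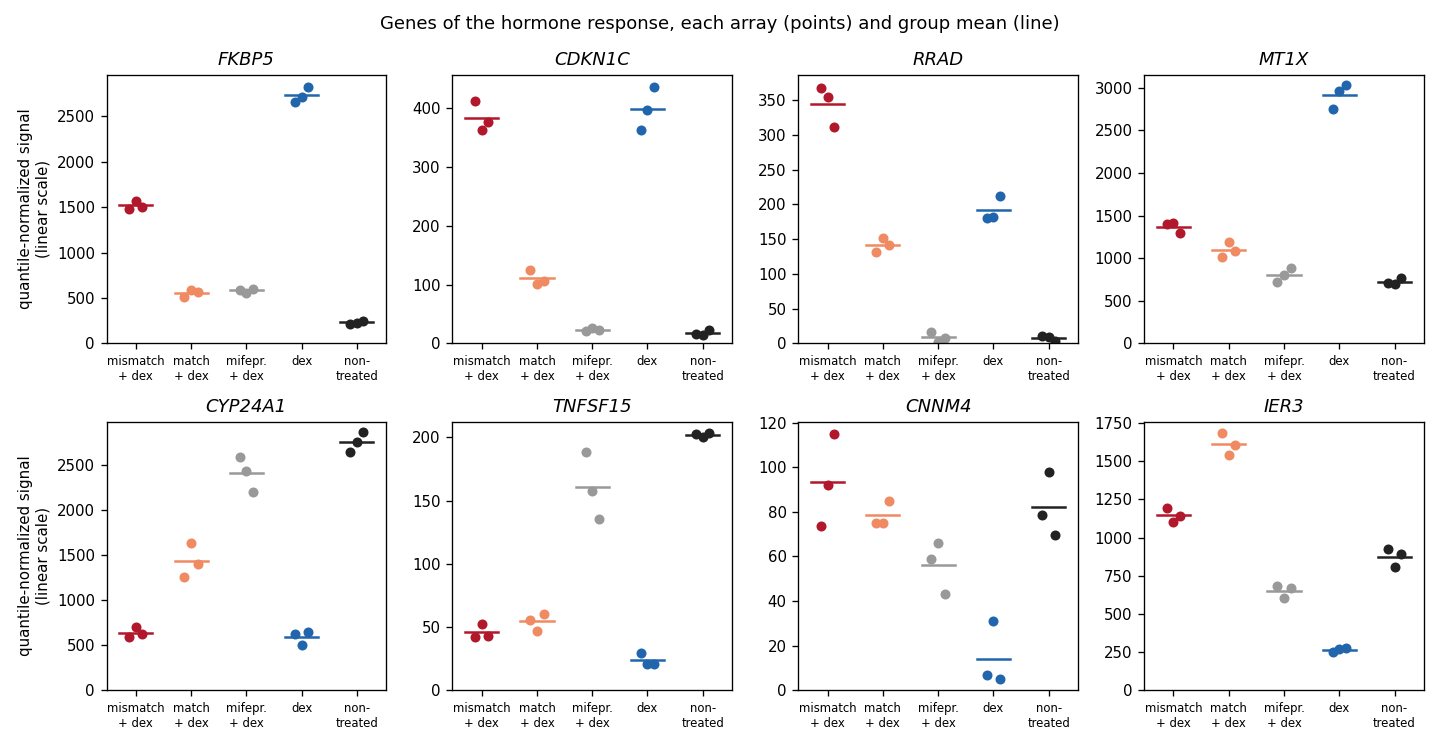
Quantile-normalized signal (linear axis from 0) of 8 hormone-responsive genes on each of the 15 arrays, with points for arrays and a line for each group's mean. FKBP5 on mismatch arrays (1480.0, 1573 and 1504) lies between dexamethasone alone and non-treated cells, RRAD (368, 354 and 311) lies above both, and CNNM4 (73.5, 91.9 and 115) overlaps the non-treated arrays.

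To measure how much of the hormone response remained without reusing any array, hormone-sensitive probe sets were taken from the comparison of dexamethasone alone with mifepristone plus dexamethasone (called, at least 2-fold), 6 arrays that the mismatch comparison with non-treated cells does not use. There were 179 such probe sets (0.45%) higher with dexamethasone than with its antagonist. In mismatch plus dexamethasone against non-treated cells, 144 of them (80.4%) were called higher, against 10.3% of all probe sets, 4 were lower and 31 did not pass, and 96 were higher by at least 2-fold. Their median change was 1.11 (quartiles 0.54 to 1.78). Dexamethasone alone, against the same non-treated arrays, gave a median of 1.53, but on arrays that chose the set for being high. The difference that chose them had a median of 1.27, taken from mifepristone plus dexamethasone and not from non-treated cells. These probe sets made up 22.5% of the 427 raised at least 2-fold by the mismatch treatment, so most of those 427 were not in the set. Directly against dexamethasone alone 100 of the 179 were lower (all probe sets 10.9%) and 18 higher (all probe sets 12%), with a median of -0.52, but that comparison reuses the dexamethasone arrays on which the set was chosen for being high.

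The lowered side was smaller. Of 52 probe sets (0.131%) at least 2-fold lower with dexamethasone than with mifepristone plus dexamethasone, 39 (75%) were called lower in the mismatch group than in non-treated cells, against 10.6% of all probe sets, 3 were higher and 10 did not pass, with a median of -0.92. They were 2.80% of the 786 probe sets lowered at least 2-fold. Dexamethasone alone, against the same non-treated arrays, gave a median of -1.42 for the 52. Directly against dexamethasone alone 25 of the 52 were higher (all probe sets 12%) and 10 lower (all probe sets 10.9%), with a median of 0.33. Both of these comparisons reuse the dexamethasone arrays on which the set was chosen for being low. With 64 in place of 16 added before the logarithm, the probe sets of either side that moved the same way numbered 93, against 144 and 39 here. With each comparison fitted on its own arrays only, so that no spread was shared, they numbered 182.

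**Figure D2:**
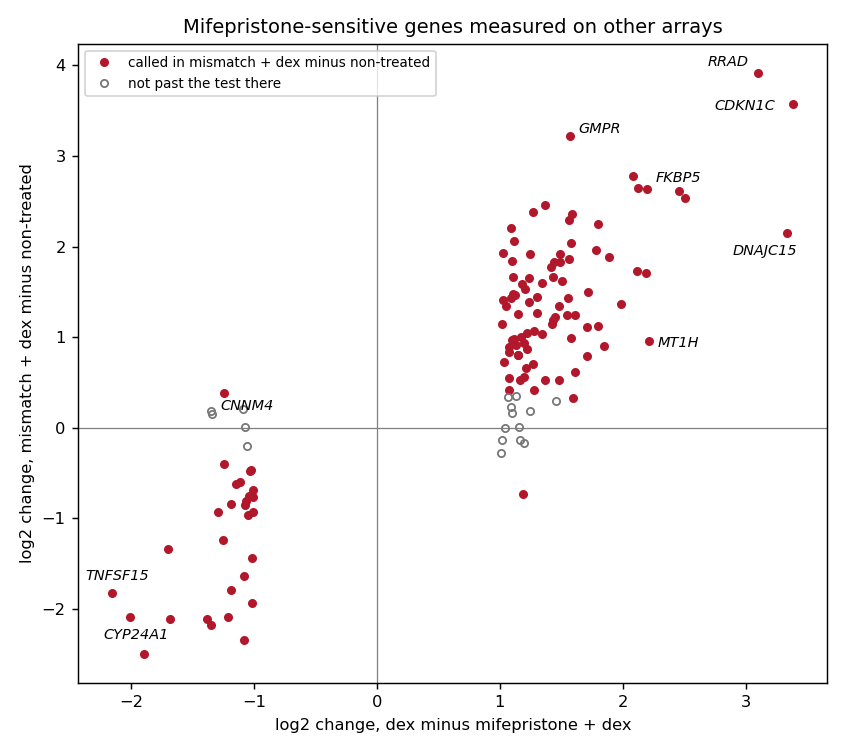
Log2 change of mifepristone-sensitive genes (99 higher and 34 lower with dexamethasone, at least 2-fold) in dexamethasone minus mifepristone plus dexamethasone (horizontal) and in mismatch plus dexamethasone minus non-treated (vertical), which use different arrays. Filled points passed the test on the vertical axis, most of the points on the right lie above 0, and RRAD (3.92) and CDKN1C (3.57) are at the top.

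Genes that dexamethasone lowers were also low in the mismatch group. CYP24A1, the vitamin D 24-hydroxylase, had signals of 586, 699.9 and 621 in mismatch plus dexamethasone cells, 621, 502 and 643 with dexamethasone alone and 2641, 2759.9 and 2864 in non-treated cells. Mismatch and dexamethasone arrays overlapped, and both were well under the non-treated ones, with -2.09 (SE 0.097, adjusted p = 5.21e-12) against non-treated cells and 0.11 (95% CI -0.091 to 0.32) against dexamethasone alone. The cytokine TNFSF15 had 41.8, 52.5 and 43, against 29.6, 20.8 and 20.4 with dexamethasone alone and 203, 200.3 and 203 in non-treated cells. Its mismatch arrays were low but above those of dexamethasone alone, with -1.82 (SE 0.14, adjusted p = 6.38e-09) and 0.64 (SE 0.14, adjusted p = 0.00185). IL11, a cytokine of the IL-6 family, fell to 1.19, 2.05 and 11.4 in the mismatch group, against 103, 84.4 and 78.2 in non-treated cells, -2.35 (SE 0.22, adjusted p = 1.02e-07), although its other probe set, like that of TNFSF15, did not pass (adjusted p = 0.536 for IL11). The transmembrane protein TM4SF20 fell by 2.11 (SE 0.12, adjusted p = 7.4e-11) and the sialyltransferase ST8SIA4 by 2.50 (SE 0.14, adjusted p = 7.95e-11).

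The list of inflammatory genes repressed by glucocorticoids had 23 tested members. Of these, 12 were called lower (all genes 12.7%), 2 higher (all genes 15%) and 9 did not pass, with a median of -0.52. Dexamethasone alone gave 10 lower (all genes 3.6%) and 1 higher (all genes 3.19%), with a median of -0.36. The chemokine CCL2 fell by 2.06 (SE 0.18, adjusted p = 4.02e-08) and the interleukin-1 receptor IL1R1 by 1.46 (SE 0.091, adjusted p = 3.11e-10). The chemokine CXCL8 did not pass on its chosen probe set (-0.56, adjusted p = 0.0652), and its other probe set was lower at -1.10 (adjusted p = 0.000324). The 2 higher members were CCL5, a chemokine for lymphocytes, at 1.44 and IER3. On the signals as deposited 7 members were lower in place of 12.

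Targets of NRF2, the factor of the antioxidant response, were low as well: 0 of 23 were higher (all genes 15%), 17 lower (all genes 12.7%) and 6 did not pass (median -0.27), against 0 higher and 9 lower with dexamethasone alone (all genes 3.19% and 3.6%; median -0.18). HMOX1, haem oxygenase, had signals of 500.1, 424 and 603 in the mismatch group, 831, 666 and 794 with dexamethasone alone and 2227, 2043 and 2464 in non-treated cells, -2.12 (SE 0.12, adjusted p = 1.25e-10) against non-treated cells. The cystine transporter SLC7A11 had 449, 453 and 417, against 735, 632 and 624 with dexamethasone alone and 2021, 2199 and 1942 in non-treated cells, -2.18 (SE 0.079, adjusted p = 2.52e-13). In both genes the mismatch arrays were lowest, dexamethasone alone intermediate and non-treated cells highest, with no overlap. AKR1C1, an aldo-keto reductase, fell by 0.97 on its chosen probe set (SE 0.09, adjusted p = 9.13e-08). Another AKR1C1 probe set changed far less (-0.17, adjusted p = 0.0302), and those at -0.10 and -0.32 did not pass. The further step below dexamethasone alone was -0.58 for HMOX1 and -0.57 for SLC7A11, and neither step passed on the signals as deposited. The count of lower members was 11 with median centring, 5 with spike-in scaling and 3 on the signals as deposited.

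Some repressed genes stood at the non-treated level or above it. NR4A2, an orphan nuclear receptor of the immediate early class, had signals of 126, 104 and 130.2 in the mismatch group, 18.6, 13.3 and 19.3 with dexamethasone alone and 104, 101 and 99.3 in non-treated cells. The mismatch arrays were higher than dexamethasone alone by 2.04 (SE 0.11, adjusted p = 1.02e-10), and their difference from non-treated cells was 0.20 (95% CI -0.033 to 0.44, adjusted p = 0.24). With the match polyamide the same gene had 1039.7, 981 and 934, so the mismatch group was -2.88 (SE 0.11, adjusted p = 1.01e-11) relative to match. IER3, an early response gene tied to cell survival, had 1191, 1104 and 1142 in the mismatch group, 251, 270.0 and 278 with dexamethasone alone and 928, 804 and 893 in non-treated cells. It stood above both, by 2.04 (SE 0.072, adjusted p = 2.37e-13) and 0.38 (SE 0.072, adjusted p = 0.000455). CNNM4, a magnesium transporter, had 73.5, 91.9 and 115, against 6.75, 30.9 and 4.88 with dexamethasone alone and 78.7, 97.8 and 69.8 in non-treated cells, 1.94 (SE 0.23, adjusted p = 3.27e-06) above dexamethasone alone and overlapping the non-treated arrays. The call of IER3 against non-treated cells was lost with spike-in scaling (adjusted p = 0.12).

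Metallothioneins, small cysteine-rich proteins that bind zinc and copper, are induced both by metals, through the factor MTF1, and by glucocorticoids. The 5 members called higher than in non-treated cells, MT1E, MT1F, MT1H, MT1X and MT2A, were the same 5 called lower than with dexamethasone alone. MT3 (-0.31 against non-treated cells) and MT1G did not pass in either comparison. The start regions of 3 members are shown, the only tested members with a RefSeq start window available. These genes lie close together on chromosome 16 and moved together. The sequences run 5′ to 3′ and hold the 250 bases before the RefSeq start (GRCh38.p14), with capitals marking every TGCACNC or TGCGCNC, the core letters of the metal response element, on either strand.
MT1X, chr16:56682220-56682469, plus strand: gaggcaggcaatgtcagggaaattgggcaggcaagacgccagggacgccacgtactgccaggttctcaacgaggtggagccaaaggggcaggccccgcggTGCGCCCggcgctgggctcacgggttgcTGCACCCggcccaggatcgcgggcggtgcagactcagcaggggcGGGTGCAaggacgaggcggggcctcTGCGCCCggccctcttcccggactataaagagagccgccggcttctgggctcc
MT1H, chr16:56669564-56669813, plus strand: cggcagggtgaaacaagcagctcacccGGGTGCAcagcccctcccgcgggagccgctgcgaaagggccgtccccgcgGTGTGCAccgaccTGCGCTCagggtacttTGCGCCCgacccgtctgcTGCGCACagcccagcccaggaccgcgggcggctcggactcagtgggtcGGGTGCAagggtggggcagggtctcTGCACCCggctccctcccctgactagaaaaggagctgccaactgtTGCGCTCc
MT2A, chr16:56608334-56608583, plus strand: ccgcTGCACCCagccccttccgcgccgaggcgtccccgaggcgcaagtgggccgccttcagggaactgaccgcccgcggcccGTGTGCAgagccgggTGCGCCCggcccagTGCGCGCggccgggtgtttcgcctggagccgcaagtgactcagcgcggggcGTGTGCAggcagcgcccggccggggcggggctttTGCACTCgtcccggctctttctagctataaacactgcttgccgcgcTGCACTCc

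MT1X, with 4 such cores above, had signals of 1401, 1414 and 1295 in mismatch plus dexamethasone cells, 2752, 2959 and 3035 with dexamethasone alone and 712, 694 and 772 in non-treated cells. The mismatch arrays lay between the others without overlap, 0.90 (SE 0.075, adjusted p = 2.23e-08) above non-treated cells and -1.08 (SE 0.075, adjusted p = 2.2e-09) relative to dexamethasone alone. MT1H, with 8 cores, had 566, 632 and 502, against 1608, 1470.4 and 1214 with dexamethasone alone and 277, 313 and 264 in non-treated cells, 0.95 (SE 0.13, adjusted p = 2.03e-05) and -1.31 (SE 0.13, adjusted p = 4.11e-07). MT2A, with 7 cores, had 2207, 2546 and 1901, against 4653, 4489 and 4344 with dexamethasone alone and 1135, 1591 and 1636 in non-treated cells, 0.61 (SE 0.13, adjusted p = 0.00115) and -1.02 (SE 0.13, adjusted p = 4.29e-06). Of 7 tested members 5 were higher than in non-treated cells (all genes 15%), with a list median of 0.79 beside 1.88 with dexamethasone alone, and 5 were lower than with dexamethasone alone (all genes 11.8%; list median -1.03). MT1G did not pass on its chosen probe set (0.10), while its other probe set was higher at 1.12 (adjusted p = 7.99e-08), and because the genes are near-identical copies their probe sets may share signal. One of the metal response cores stood in 36.7% of 12929 windows of all tested genes over the full RefSeq window of 300 bases, so a match describes letters and not a bound site.

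The match polyamide, set directly against the mismatch polyamide at the same hours and with the same hormone time, compares the ligands. This was the only pair of polyamides in the series. The comparison gave 6697 calls (16.9%), 3728 higher with mismatch (9.38%) and 2969 lower (7.47%). Among the 179 mifepristone-sensitive raised probe sets, chosen on other arrays, 97 were higher with mismatch than with match, 14 were lower and the median difference was 0.50. Against the same non-treated arrays, 144 were higher with mismatch (median 1.11) and 108 with match (all probe sets 15.1%; median 0.58). Among the 52 lowered ones, 29 were lower with mismatch and 3 higher (median -0.49), and against non-treated cells 39 were lower with mismatch and 24 with match (all probe sets 14.8%). Without doses or uptake in the labels, a difference between them is one between these treatments.

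FKBP5 had 1480.0, 1573 and 1504 with mismatch and 509, 586 and 566 with match, 1.43 (SE 0.071, adjusted p = 8.74e-11) higher with mismatch. CDKN1C had 412, 362 and 377 with mismatch and 125, 101 and 105 with match, a difference of 1.66 (SE 0.12, adjusted p = 1.62e-08). DNAJC15 was near the bottom of the scale with match (0.841, 1.71 and 4.21) and at 73.6, 75.3 and 69.3 with mismatch. Some hormone genes differed less: ANGPTL4 differed by 0.14 (95% CI -0.19 to 0.47), RGS2 by -0.13 (95% CI -0.31 to 0.06) and TSC22D3 by 0.31 (SE 0.095, adjusted p = 0.0269). SGK1 went the other way, at -0.67 (SE 0.098, adjusted p = 6.87e-05). In the glucocorticoid-induced list 19 of 47 members were higher with mismatch (all genes 13.5%), 8 lower (all genes 9.41%) and 20 did not pass.

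Beside the hormone response, the mismatch group held changes that dexamethasone alone did not show. RASD1, a Ras-related GTPase first described as dexamethasone-induced, had signals of 384, 375 and 385 in the mismatch group, 17.3, 22.6 and 10.3 with dexamethasone alone and 20.7, 18.9 and 15.1 in non-treated cells. Both groups without ligand were near the floor, and the mismatch group stood 3.62 (SE 0.21, adjusted p = 1.85e-10) above dexamethasone alone. BEX2, a brain-expressed X-linked gene, had 414, 446 and 404, against 61.6, 69.4 and 68.7 with dexamethasone alone and 71.5, 56.9 and 79.9 in non-treated cells, 2.41 (SE 0.11, adjusted p = 3.91e-12) above dexamethasone alone. NEFL, the neurofilament light chain, rose by 2.26 (SE 0.13, adjusted p = 1.99e-10) and the pseudogene WFDC21P by 2.33 (SE 0.14, adjusted p = 3.55e-10) in the same comparison. These genes were raised by the match polyamide too: mismatch minus match was 0.10 for RASD1 (95% CI -0.34 to 0.55), -0.028 for BEX2 (95% CI -0.25 to 0.19) and -0.037 for NEFL (95% CI -0.31 to 0.24), while WFDC21P was higher with mismatch by 0.67 (SE 0.14, adjusted p = 0.00216).

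TNNC1, cardiac and slow-muscle troponin C, differed between the ligands, with 81.1, 93 and 54.5 in the mismatch group, 1.02, 17.1 and 7.67 with match, 1.80, 27 and 1.79 with dexamethasone alone and 5.85, 16 and 16.2 in non-treated cells. It was higher with mismatch than with match by 1.94 (SE 0.31, adjusted p = 0.000143). DUSP6, a phosphatase induced by and acting on ERK, showed the reverse order between the ligands, with 343, 305 and 309 for mismatch and 484, 487 and 502 for match, against 69.3, 78 and 69.4 with dexamethasone alone and 84.1, 82.7 and 109.6 in non-treated cells. Its mismatch signal exceeded that with dexamethasone alone by 1.92 (SE 0.11, adjusted p = 1.67e-10) and was lower than with match by 0.60 (SE 0.11, adjusted p = 0.000656). TFF1, a mucosal trefoil peptide, was likewise higher than in non-treated cells by 1.43 (SE 0.12, adjusted p = 4.04e-08) and lower than with match (-1.68), and EPCAM, an epithelial adhesion protein, rose by 1.09 (SE 0.11, adjusted p = 2.56e-07).

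Of the 12 genes most lowered against non-treated cells, dexamethasone alone lowered ST8SIA4 past the test and none of the others. PRKCA, protein kinase C alpha, had signals of 82.4, 91.7 and 104 in the mismatch group, 795, 763 and 765 with dexamethasone alone and 792, 877 and 751 in non-treated cells, -2.92 (SE 0.095, adjusted p = 8.36e-14) against non-treated cells. IMMP2L, a subunit of the mitochondrial inner membrane peptidase, had 3.92, 5.41 and 2.21, against 177, 149.6 and 163 with dexamethasone alone and 182, 162 and 199 in non-treated cells, -3.31 (SE 0.13, adjusted p = 7.97e-13). PTPRM, an adhesion-type receptor phosphatase, had 53.2, 39.2 and 58 in the mismatch group, against 377, 412 and 379.8 in non-treated cells, and the related PTPRK had 39.9, 42 and 34.9 in the mismatch group, against 301, 326 and 325 in non-treated cells. In all of these the mismatch arrays were far under the non-treated ones with no overlap. The rest of the 12 most lowered genes were EXOC4 (-3.13), GPC6 (-3.10), SMYD3 (-3.03), CACNA2D1 (-2.77), SHANK2 (-2.75), LPP (-2.63) and ARL15 (-2.51). Among their other probe sets, those that did not pass were 1 of 2 for EXOC4 (0.020), the only one of GPC6 (-0.72, adjusted p = 0.070), 2 of 4 for SHANK2 (-0.10 and -0.62), 3 of 6 for LPP (-0.033, -0.42 and -0.16), 1 of 3 for PRKCA (-0.53) and the only one of PTPRK (-0.42, adjusted p = 0.191).

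DOCK4, an activator of the GTPase Rac, was higher with dexamethasone alone and lower with either polyamide. It had 24.4, 18.4 and 20.2 in the mismatch group, 19.2, 17.6 and 19.7 with match, 329, 301 and 336 with dexamethasone alone and 172, 181 and 172 in non-treated cells. Dexamethasone alone raised it by 0.82 (SE 0.12, adjusted p = 6.85e-05), and the mismatch group was -2.37 (SE 0.12, adjusted p = 9.48e-12) relative to non-treated cells and -3.19 (SE 0.12, adjusted p = 3.34e-13) relative to dexamethasone alone. Mismatch and match arrays overlapped, with a difference of 0.085 (95% CI -0.16 to 0.33). PTPRM and PTPRK were less reduced by mismatch than by match, with differences of 0.83 (SE 0.11, adjusted p = 2.61e-05) and 0.87 (SE 0.11, adjusted p = 1.15e-05). In 11 tested receptor tyrosine phosphatases 0 were higher (all genes 15%), 4 lower (all genes 12.7%) and 7 did not pass, the others lowered being PTPRG (-1.46) and PTPRS (-0.55), the call of PTPRS being lost on the signals as deposited and with spike-in scaling.

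**Figure D3:**
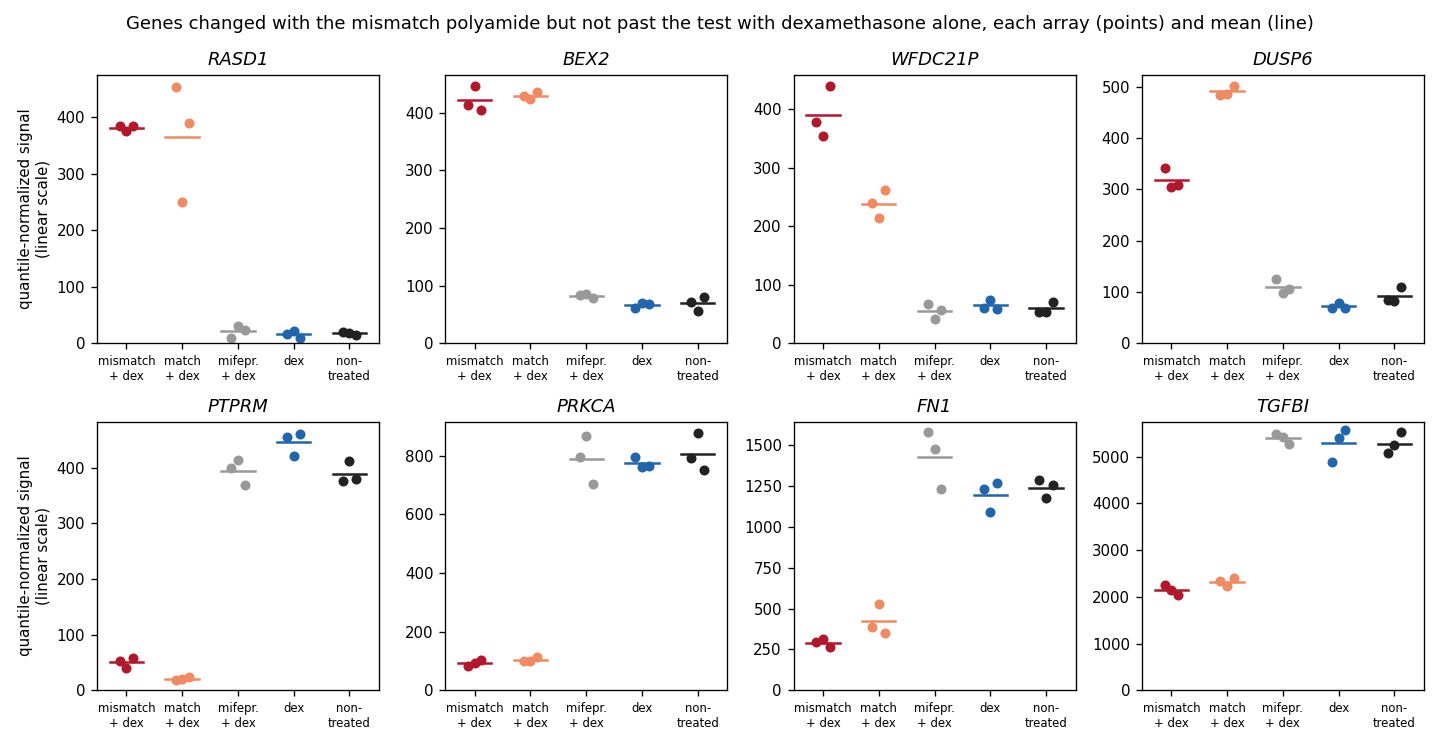
Quantile-normalized signal (linear axis from 0) of 8 genes that changed in the mismatch group and did not pass the test with dexamethasone alone, on each of the 15 arrays, with points for arrays and a line for each group's mean. Both polyamide groups stand apart from the 3 groups without polyamide, for example RASD1 at 384, 375 and 385 with mismatch and PRKCA at 82.4, 91.7 and 104.

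The share of the mismatch response that a polyamide response covers was measured on separate arrays as well, apart from the shared estimate of spread. Probe sets changed at least 2-fold by the match polyamide relative to dexamethasone alone numbered 814 higher (2.05%) and 1636 lower (4.12%), and those 6 arrays are not in the comparison of mismatch with non-treated cells. Of the 814 raised by match, 454 (55.8%) were higher in the mismatch group than in non-treated cells (all probe sets 10.3%), 36 were lower and 324 did not pass, with a median of 0.50. Of the 1636 lowered by match, 1196 (73.1%) were lower (all probe sets 10.6%), 94 higher and 346 did not pass, with a median of -0.76. The match-lowered set held 531 (67.6%) of the 786 probe sets that the mismatch treatment lowered at least 2-fold, where the mifepristone-sensitive set held 2.80%. On the raised side the shares were 26.0% and 22.5% of 427. The sets differ in size, so these shares cannot be compared directly. The lowered sets held 1636 and 52 probe sets (4.12% and 0.131% of those tested) and the raised sets 814 and 179 (2.05% and 0.45%). Of the same 1636 probe sets, 973 were higher with mismatch than with match (all probe sets 9.38%) and 19 lower (all probe sets 7.47%). That comparison reuses the match arrays on which the set was chosen for being low, so it cannot size the difference between the ligands.

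Further gene groups are given beside dexamethasone alone, against the same non-treated arrays. Over all genes, 15% were higher and 12.7% lower with mismatch, and 3.19% were higher and 3.6% lower with dexamethasone alone. Of 26 tested p53 targets, genes of growth arrest, DNA repair and cell death, 19 were higher than in non-treated cells, 0 were lower and 7 did not pass (median 0.63), against 2 higher and 2 lower with dexamethasone alone (median -0.031). CDKN1A, the p21 inhibitor of cyclin-dependent kinases, had 1068, 1063 and 967 in the mismatch group, 647, 699 and 678 with dexamethasone alone and 424, 478 and 424 in non-treated cells, 1.20 (SE 0.079, adjusted p = 6.59e-10). MDM2, the ligase that degrades p53, had 829, 799 and 888, against 358, 334 and 301 with dexamethasone alone and 323, 380.1 and 335 in non-treated cells, 1.24 (SE 0.11, adjusted p = 3.33e-08). SERTAD1 (1.12), TP53I3 (1.23) and the phosphatase PPM1D (1.02) rose as well. Other probe sets of MDM2 ran from -0.33 to 1.16, and 5 of 8 did not pass. The counts take 1 probe set a gene. A probe set of the list member GDF15 that was not counted was lower than in non-treated cells with mismatch (-0.48, adjusted p = 0.0029). With dexamethasone alone it was lower by more (-2.37, adjusted p = 9.73e-12). Directly against dexamethasone alone 20 of the 26 were higher (all genes 17.9%) and 0 lower (all genes 11.8%), and against match 3 were higher (all genes 13.5%) and 4 lower (all genes 9.41%).

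Of 22 interferon-stimulated genes, antiviral effectors and sensors, 14 were higher (all genes 15%), 0 lower (12.7%) and 8 did not pass (median 0.53), against 1 higher and 1 lower with dexamethasone alone (all genes 3.19% and 3.6%). ISG15, a ubiquitin-like modifier, had 201, 193 and 158 in the mismatch group, 54, 51.3 and 50.2 with dexamethasone alone and 65.4, 47.1 and 61 in non-treated cells, 1.44 (SE 0.16, adjusted p = 8.25e-07), and IFIT1 and IFIT3 rose by 1.51 and 1.22. Another probe set of IFIT3 did not pass (0.35, adjusted p = 0.14). With match ISG15 was higher still (346, 416 and 389), mismatch minus match being -1.003 (SE 0.16, adjusted p = 0.000121). Of 25 genes of the ATF4 and amino acid response, which balances amino acid supply under stress, 14 were higher (all genes 15%) and 3 lower (12.7%; median 0.33), among them asparagine synthetase ASNS at 1.01 (SE 0.057, adjusted p = 7.4e-11) with 1496, 1614 and 1507 in the mismatch group, against 767, 758 and 742 in non-treated cells. Against match 0 of the 25 were higher with mismatch (all genes 13.5%) and 20 were lower (all genes 9.41%; median -0.55), and with spike-in scaling 6 in place of 14 were higher against non-treated cells.

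Of 24 immediate early genes 7 were higher (all genes 15%) and 4 lower (12.7%) than in non-treated cells (median 0.14), where dexamethasone alone gave 6 higher and 9 lower (all genes 3.19% and 3.6%). With spike-in scaling 4 were higher and 2 lower. MCL1, a survival factor of the BCL2 family, rose by 1.21 (SE 0.074, adjusted p = 2.09e-10) and the AP-1 component FOSL2 by 1.09 (SE 0.069, adjusted p = 3.63e-10), both also higher with dexamethasone alone (1.32 and 0.75), while IER2 fell by 0.85 (SE 0.072, adjusted p = 2.62e-08). Against match 0 of the 24 were higher (all genes 13.5%) and 18 were lower (all genes 9.41%; median -0.60). The extracellular matrix and TGF-beta group went down: 19 of 26 were lower (all genes 12.7%), 2 higher and 5 did not pass, with a median of -0.65, against 4 lower and 4 higher with dexamethasone alone (all genes 3.6% and 3.19%; median -0.047). FN1, fibronectin, had 294, 315 and 267 in the mismatch group, 1236, 1089 and 1271 with dexamethasone alone and 1290.0, 1179.7 and 1257 in non-treated cells, -2.03 (SE 0.12, adjusted p = 7.4e-11), and 3 of its other probe sets were lower while the remaining pair (-0.017 and 0.041) did not pass. TGFBI, a secreted matrix protein induced by TGF-beta, fell by 1.30 (SE 0.054, adjusted p = 1.22e-12) and the type IV collagen chain COL4A2 by 1.72 (SE 0.12, adjusted p = 2.43e-09), and PMEPA1, an inhibitor of TGF-beta signalling, by 2.06 (SE 0.10, adjusted p = 9.31e-12), whereas the receptor TGFBR1 rose by 1.33 there and by 1.00 with dexamethasone alone. On the signals as deposited 12 members were lower in place of 19.

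Endoplasmic reticulum chaperones and folding enzymes were lower in 10 of 18 members (all genes 12.7%), higher in 1 (all genes 15%; XBP1, the transcription factor of the unfolded protein response, at 0.54) and not past the test in 7, with a median of -0.29, against 0 lower and 1 higher with dexamethasone alone (all genes 3.6% and 3.19%). PDIA4, a protein disulfide isomerase, fell by 0.80 (SE 0.10, adjusted p = 7.75e-06), and EDEM1 and SEL1L, which take misfolded proteins to degradation, by 0.83 and 0.71. The number lower was 6 with median centring, 5 with spike-in scaling and 3 on the signals as deposited. Of 27 ribosomal protein genes 3 were higher (all genes 15%) and 0 lower (all genes 12.7%), with a median of 0.037 in the mismatch group and -0.0063 with dexamethasone alone.

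**Figure D4:**
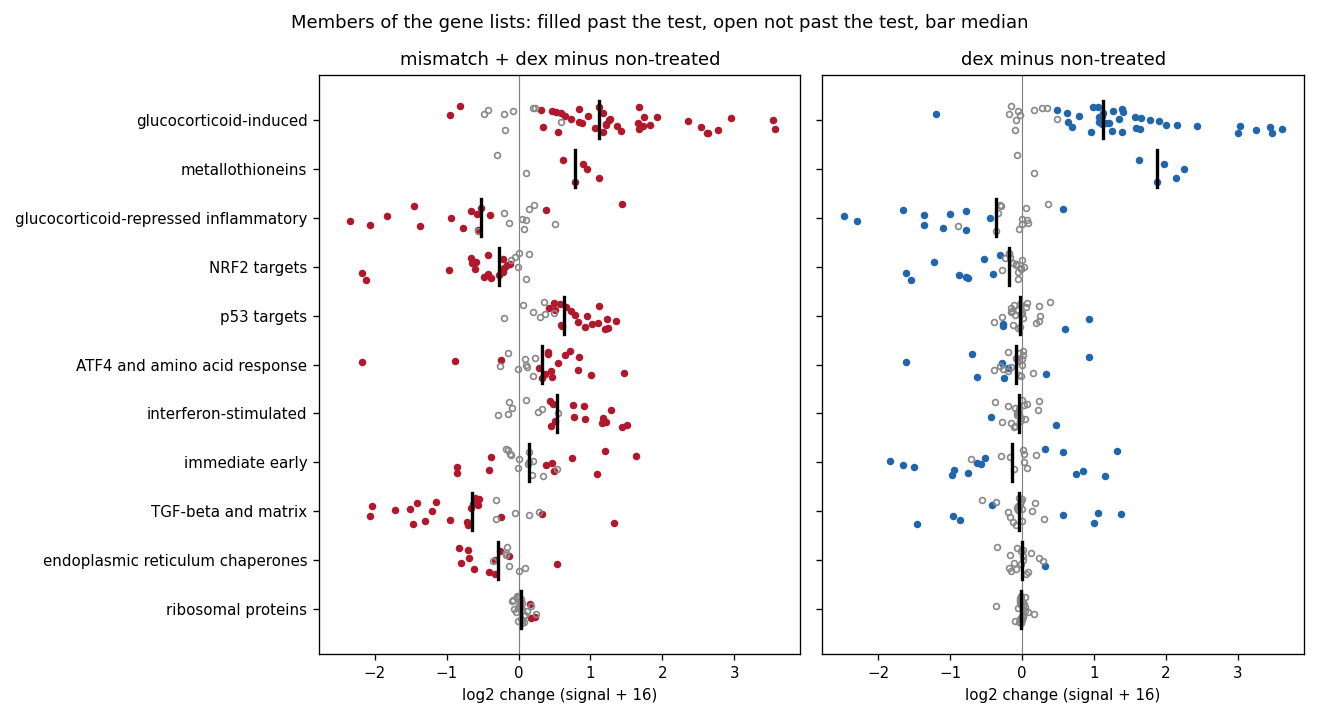
Log2 change of each tested member of 11 gene lists in mismatch plus dexamethasone minus non-treated (left) and dexamethasone minus non-treated (right), which share the non-treated arrays; filled points passed the test, open points did not, and bars are medians. Glucocorticoid-induced medians are 1.12 and 1.13, whereas p53 targets stand at 0.63 on the left and -0.031 on the right.

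NR3C1, the glucocorticoid receptor itself, had 857, 836 and 907 in the mismatch group, 1137, 935 and 1068 with dexamethasone alone and 1349.6, 1332 and 1289.6 in non-treated cells. Mismatch arrays were the lowest of the 3 groups, at -0.60 (SE 0.077, adjusted p = 5.99e-06), a call that was lost on the signals as deposited (adjusted p = 0.14), and the difference from dexamethasone alone was -0.26 (SE 0.077, adjusted p = 0.0153). Of 15 tested genes of the receptor and its co-regulators 0 were higher (all genes 15%), 7 lower (all genes 12.7%) and 8 did not pass (median -0.23), against 1 lower with dexamethasone alone (all genes 3.6%). The coactivators NCOA1 and NCOA2 fell by 0.95 (SE 0.13, adjusted p = 2.25e-05) and 0.97 (SE 0.093, adjusted p = 1.56e-07), and the corepressor NRIP1 by 0.61 (SE 0.081, adjusted p = 1.06e-05). On the signals as deposited 3 members were lower in place of 7, and NRIP1 and the receptor's difference from dexamethasone alone no longer passed.

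Gene span, the length from first to last base in the RefSeq annotation, was known for 16334 of 16358 genes and separated the lowered genes. Of 4090 genes under 10 kb, 4.21% were lower in the mismatch group than in non-treated cells and 18.3% higher. The share lower was 5.33% of 4617 genes of 10 to 30 kb, 12.8% of 4771 genes of 30 to 100 kb, 34.2% of 2240 genes of 100 to 300 kb and 46.4% of 616 genes over 300 kb. Only 5 genes over 300 kb (0.81%) were higher. With dexamethasone alone, the share lower was between 2.64% and 5% in the 5 span groups. Median changes in the mismatch group ran 0.12, 0.12, 0.026, -0.21 and -0.42 over the same groups, and 49.8% of the longest genes were lower with match. Signal differs between span groups, with median log2 signals between 5.38 and 7.11, so the groups were counted again over the better measured genes, those above the median of mean signal over all arrays, an alternative chosen after seeing the data. There 7.76% of 1636 genes under 10 kb and 86.0% of 172 genes over 300 kb were lower, while with dexamethasone alone 5.01% and 12.8% of these genes were lower. The count of lowered genes over 300 kb was 286, and 238 on the signals as deposited.

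**Figure D5:**
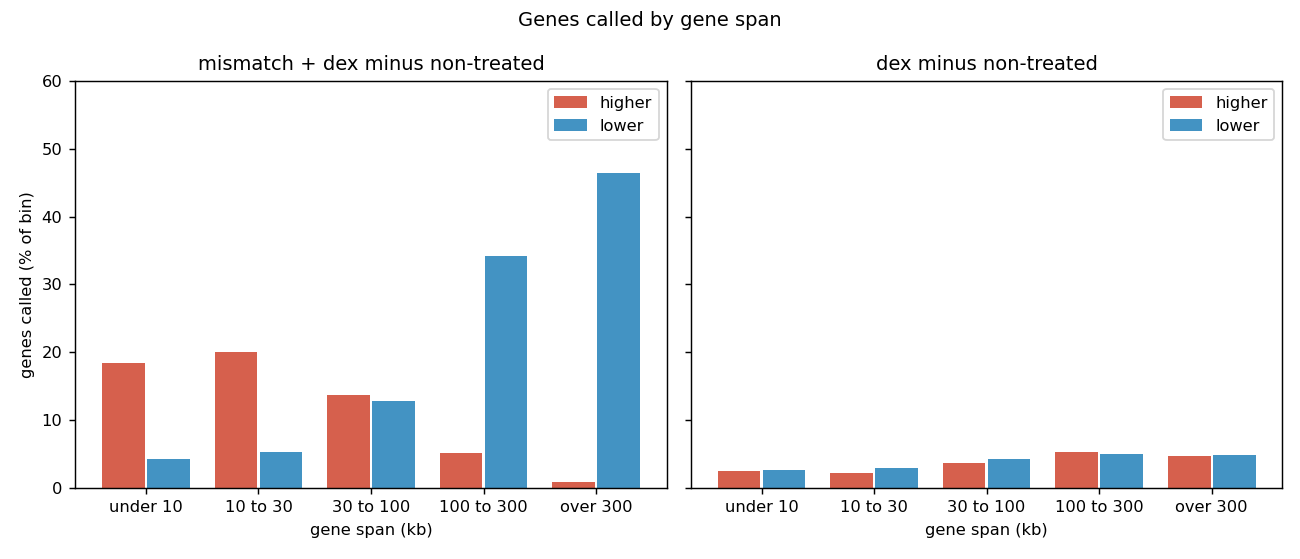
Percent of genes called higher (red) and lower (blue) by gene span in kilobases, in mismatch plus dexamethasone minus non-treated (left) and dexamethasone minus non-treated (right), which share the non-treated arrays. On the left, the lower share runs from 4.21% under 10 kb to 46.4% over 300 kb, and on the right no lower bar passes 5%.

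Among hormone genes the longest had the smallest median change. Among mifepristone-sensitive raised genes, the median change in the mismatch group was 1.20 for 30 genes under 10 kb, 1.56 for 16 genes of 10 to 30 kb, 1.24 for 34 genes of 30 to 100 kb and 0.70 for 19 genes of 100 kb or more. The difference that chose them, on other arrays, had medians of 1.39, 1.39, 1.24 and 1.27 in the same order. With dexamethasone alone against the same non-treated arrays the medians were 1.61, 1.62, 1.47 and 1.41, lowest in the longest group too. Those dexamethasone arrays were among the ones that chose the set. The groups of 16 and 19 genes are thinly filled, and the mismatch medians of the other groups were 1.20 and 1.24. Changes in the longest group ran from -0.74 to 2.64, and FKBP5, a gene of over 100 kb, stood at the top of it with 2.64.

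The start regions of raised and lowered genes were searched for response-element letters. AGAACA, the stronger arm of the glucocorticoid response element, stood on either strand in 17 of 189 RefSeq windows (250 bases before to 50 after the start) of genes raised at least 2-fold, in 27 of 335 of genes lowered at least 2-fold (8.06%) and in 10.1% of all 12929 tested genes with a window. With or without a window, 1.65% of all genes were raised and 2.51% lowered at least 2-fold. The full element, AGAACA followed by TGTTCT with 3 free bases between, was in 0 windows of either group and in 0 of all, and TGACGTCA, the cyclic AMP response element, was in 3.17% of raised, 2.39% of lowered and 2.85% of all windows. Many receptor sites are known to lie in introns or far from the start, outside these windows, and no match says only that the letters are not in the window.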

How the data were processed

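RNA of 15 A549 samples in 5 groups of 3 was measured on Affymetrix arrays. The deposited values are linear probe set intensities made with MAS5, per the submitters' processing notes. Those notes name neither a version nor a scaling target, and array medians differed. The signals of 54675 probe sets, 62 of them controls that were left out of the tests, were quantile normalized and turned into log2(signal + 16). A probe set was tested where at least 3 of 15 arrays exceeded their own 40th percentile, which left 39744. One model over all 15 arrays was fitted with limma 3.58.1 in R 4.3.3 (lmFit, eBayes with trend, 10 residual degrees of freedom) with Benjamini-Hochberg adjustment, called under 0.05, and it was tested on simulated data. Depth has no meaning for arrays, and the 3 arrays of a group limit the precision. Each of 16358 genes was read from 1 probe set bearing its symbol alone, those ending in _x_at last, then the brightest. Of all probe sets, 41097 carried 1 symbol, 1801 several and 11777 none. Summaries used Python 3.11.15 with pandas 2.3.3 and numpy 2.4.6. Genes named are the 12 most raised and lowered without overlap, the 8 most changed against dexamethasone, the 10 of each direction most changed in the mifepristone-sensitive set, 10 textbook genes and up to 4 of each list by adjusted p. Other list members named were chosen after their values were seen. Members, lists and rules were chosen with earlier results of these data known. Alternatives were other scalings, pseudocounts, filters, no variance trend, only the compared arrays, a replicate block and leaving out each array. Same-numbered mismatch and non-treated arrays correlated at 0.012, 0.081 and -0.033 after removing group means, so the numbers were not taken as pairs. Promoters and gene spans came from RefSeq (GRCh38.p14).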

Additional observations from a re-analysis of the deposited data

How the results depend on the processing

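Of 122 named genes, 112 kept their direction and side of the threshold against non-treated cells on the signals as deposited and 105 with spike-in scaling, and with the replicate block 122 did. On the signals as deposited ATP5F1A turned to 0.065 against non-treated cells (adjusted p = 0.785) and to 0.041 against dexamethasone alone (adjusted p = 0.871) by limma. That scaling gave 1613 probe sets lower than in non-treated cells, 814 called with dexamethasone alone, 3094 for mismatch minus match, and 51 lowered genes under 10 kb. Spike-in scaling gave 3942 calls against non-treated cells (1773 higher and 2169 lower), 4624 against dexamethasone, 767 for dexamethasone alone, 2847 against match and 68 lowered genes under 10 kb. The cause was not tested. With 64 added before the logarithm, 93 mifepristone-sensitive and 833 match-responsive probe sets moved the same way, beside 183 and 1650 with 16. Requiring 2-fold as well left 1213 calls against non-treated cells (427 higher and 786 lower), 1172 against dexamethasone, 371 for dexamethasone alone, 440 against match, 118 mifepristone-sensitive and 642 match-responsive. Among genes above the median in mean signal, which are fewer, 148 over 300 kb were lower. Leaving out 1 array in turn gave 6846 to 8540 calls against non-treated cells (3269 to 4212 higher and 3555 to 4328 lower), 7514 to 9349 against dexamethasone, 1433 to 2025 for dexamethasone alone and 5372 to 6735 against match. The mifepristone-sensitive count then ran from 172 to 186 and the match-responsive one from 1518 to 1723. The replicate block gave 8355 calls (4138 higher and 4217 lower) against non-treated cells and changed no call of a named gene there. Of 127 other probe sets of called named genes (66 genes), 74 were called the same way, 1 the opposite way (ME1) and 52 were not called. Genes named outside the naming rules are not in this count, among them SLC6A6, which also had a probe set called the opposite way. Signals under about the array median, 18.2, carry little over background, and the added 16 shrinks changes there.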

Other observations

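Genes of the circadian clock, which sets daily rhythms of transcription, numbered 15, of which 5 were called higher (all genes 15%) and 3 lower (all genes 12.7%) in mismatch plus dexamethasone cells relative to non-treated cells (median 0.20; limma, adjusted over all probe sets). PER2, a repressor of the clock and a known glucocorticoid target, rose by 1.63 (SE 0.089, adjusted p = 4.62e-11), beside 1.17 with dexamethasone alone, and BMAL1, the clock activator, fell by 0.71 (SE 0.12, adjusted p = 0.000204), beside -0.69 with dexamethasone alone. Of 19 hypoxia and glycolysis genes 7 were higher and 2 lower (median 0.31), beside the same shares of all genes. NDRG1, a stress-induced protein, rose by 1.54 (SE 0.10, adjusted p = 8.17e-10), and the glycolytic regulator PFKFB3 fell by 1.07 (SE 0.093, adjusted p = 3.90e-08), with 1.29 and -0.91 for these genes with dexamethasone alone.

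Proliferation and housekeeping lists had medians between 0.0054 and 0.15, beside 0.044 over all genes, of which 15% were higher and 12.7% lower. Of 26 mitosis genes 5 were higher and 1 lower (median 0.044), CDC20, an activator of the anaphase-promoting complex, rising by 0.58 (SE 0.093, adjusted p = 9.53e-05) and the spindle protein NUSAP1 falling by 0.58 (SE 0.054, adjusted p = 1.09e-07). Of 28 replication genes 7 were higher and 4 lower (median 0.090), with POLA1, the catalytic subunit of DNA polymerase alpha, lower by a log2 change of -1.17 (SE 0.11, adjusted p = 1.85e-07). Of 16 cholesterol synthesis genes 5 were higher and 0 lower (median 0.055), and of 25 oxidative phosphorylation genes 4 were higher and 3 lower (median 0.0054). Of 31 genes of the RNA polymerase II machinery 7 were higher and 2 lower (median 0.15). HEXIM1, an inhibitor of the elongation kinase P-TEFb, fell by 0.84 (SE 0.055, adjusted p = 6.92e-10), beside -0.56 with dexamethasone alone. Of 17 airway epithelial genes 5 were higher and 3 lower (median 0.14). The mucin MUC1 rose by 1.44 (SE 0.17, adjusted p = 2.46e-06) and E-cadherin, CDH1, fell by 0.83 (SE 0.097, adjusted p = 2.30e-06). Another probe set of CDH1 did not pass (-0.29, adjusted p = 0.306).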
